A study of Homo sapiens
Mus musculus and Homo sapiens and Mus musculus with 7 samples.

Results

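Aminoacyl-tRNA synthetases are the enzymes that join each amino acid to its tRNA, and the messenger RNAs of 36 human synthetase genes were followed through a ribosome pull-down experiment. The 36 genes were taken by symbol from the 58721 human genes in the count tables, by a rule that uses no measured value. They are 20 genes of cytosolic enzymes and 16 genes of mitochondrial enzymes. In the study, human HEK293 cells that expressed HA-tagged RPL22, a protein of the ribosome, were grown in co-culture with mouse NIH3T3 fibroblasts that expressed V5-tagged RPL22. An antibody against either tag pulls down ribosomes of one line together with the mRNA bound to them. The groups used here were 2 HA immunoprecipitates (IPs) and 2 V5 IPs of the co-culture, each pair a first and a second IP, 1 library of total RNA of the co-culture (the input) and 1 library of total RNA of HEK293 cells grown alone. Total RNA of NIH3T3 cells grown alone served only to check for mouse RNA counted on human genes. HEK293 is an immortalised embryonic kidney line. The sources used here do not say whether the monocultures carried the tags or whether a tagged line was a single clone.

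Human cells make protein in the cytosol and, from mitochondrial DNA, inside mitochondria. All synthetases are encoded in the nucleus, and most amino acids have one gene for the cytosolic and another, usually with a name ending in 2, for the mitochondrial enzyme. GARS and KARS are exceptions, since each encodes both forms. Synthetases fall into 2 unrelated structural classes. In the cytosol, EPRS, IARS, LARS, QARS, MARS, KARS, RARS and DARS are bound into the multisynthetase complex, which the scaffold proteins AIMP1, AIMP2 and EEF1E1 hold together. FARSA and FARSB are unusual in encoding the α and β subunits of a single enzyme, the cytosolic phenylalanyl-tRNA synthetase. Several cytosolic synthetase genes are textbook targets of ATF4, the transcription factor of the amino acid response.

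Total counts per library were 888270 to 2063885. Human genes held 729698 counts in the first and 1213213 in the second HA IP (82.1 and 77.6% of the counts), 128915 and 81798 in the V5 IPs (6.25 and 4.48%), 280163 in the input (26.9%) and 826673 in HEK293 alone. Levels are CPM, the count of a gene scaled to a fixed total of human counts in each library, so fewer human cells and less RNA per human cell cannot be told apart. A single count was worth 1.37 and 0.824 CPM in the HA IPs, 7.76 and 12.2 CPM in the V5 IPs, 3.57 CPM in the input and 1.21 CPM in HEK293 alone. The input and the HEK293 library had no replicate. The sample descriptions assign both first IPs to a single numbered lysate, and the second HA IP and the second V5 IP to a lysate each with other numbers. How those lysates relate to one another and to the input is not stated, nor whether they were separate cultures, so p-values reflect how far the IPs of a pair lay apart and nothing wider. Intervals on counts are exact 95% intervals and cover counting error only. The HEK293 marker list summed to 288 and 190 CPM in the HA IPs, 85.3 and 73.4 CPM in the V5 IPs, 186 CPM in the input and 315 CPM in HEK293 alone, with NEFL detected in every library, KRT18 in every library but the first V5 IP, and NEFM in none. The 7 human fibroblast markers summed to at most 12.2 CPM in any library. The share of human counts on genes encoded in mitochondrial DNA was 0.354 and 0.466% for HA, 2.28 and 3.54% for V5, 5.58% in the input and 8.35% in HEK293 alone, and its part in the differences that follow was not tested. With those genes out of the total, the synthetases averaged 1804 CPM in the HA IPs, against 1797 CPM with them in. In NIH3T3 cells alone, 35 of the 36 synthetase genes had 0 counts and GARS had 1, and 0 counts allows up to 3 of that library's 1999078 counts.

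The genes on which the results turn differ in base composition. The 4 stretches that follow are the last 120 coding bases before the stop codon in the longest coding GENCODE 29 transcript of each gene (hg38), 5′ to 3′, with a codon's last base in capitals where it is G or C. FARSA and FARSB are shown because they encode partner subunits and their fitted differences between HA IPs and input had opposite signs, TARS because it had the largest difference between HA IPs and input among genes counted in the input, and QARS because it had the lowest fitted difference in the HA IPs against input, HEK293 alone and V5 IPs.
FARSA: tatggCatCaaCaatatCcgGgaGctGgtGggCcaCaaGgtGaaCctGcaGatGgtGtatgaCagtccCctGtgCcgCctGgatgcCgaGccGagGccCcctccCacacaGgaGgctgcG
FARSB: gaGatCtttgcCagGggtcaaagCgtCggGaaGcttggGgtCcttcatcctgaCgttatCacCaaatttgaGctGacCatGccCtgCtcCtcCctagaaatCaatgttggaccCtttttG
TARS: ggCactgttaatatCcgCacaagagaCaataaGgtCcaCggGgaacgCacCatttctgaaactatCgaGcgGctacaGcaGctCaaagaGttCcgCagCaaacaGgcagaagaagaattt
QARS: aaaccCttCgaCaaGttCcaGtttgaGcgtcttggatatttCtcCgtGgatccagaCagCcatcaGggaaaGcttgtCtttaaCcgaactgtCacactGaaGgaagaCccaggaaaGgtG
In these stretches 32 of 40 codons of FARSA end in G or C, against 24 in FARSB, 21 in TARS and 22 in QARS. Over the whole coding sequence the share of codons that end in G or C was 79.7% in FARSA, 37.7% in FARSB, 43.0% in TARS and 64.0% in QARS. FARSA lies on the minus strand at chr19:12922479-12934037, FARSB on the minus strand at chr2:222570536-222656337, TARS on the plus strand at chr5:33440696-33469539 and QARS on the minus strand at chr3:49095932-49105135.

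Per kilobase of exon, the most abundant synthetase mRNAs on human ribosomes were those of cytosolic enzymes. The highest mitochondrial ones lay below these but not below all cytosolic genes, and IARS2 ranked 9 among the 36 genes. FARSA was the highest of all in the HA IPs, with 140 ± 23.4 CPM per kb (SD, n = 2). RARS, the arginyl enzyme, followed with 47.0 ± 16.3 CPM per kb, GARS, the glycyl enzyme, with 39.5 ± 24.4 and SARS, the seryl enzyme, with 34.2 ± 1.83 (SD, n = 2 each). These 3 neighbours differed by less than the spread of GARS, whereas FARSA was above each of them in both HA IPs. The highest mitochondrial mRNAs were IARS2, the isoleucyl enzyme, with 13.9 ± 5.05 CPM per kb, YARS2, the tyrosyl enzyme, with 7.64 ± 8.10, and WARS2, the tryptophanyl enzyme, with 6.74 ± 1.98. The spread of YARS2 exceeded its mean, so its place in that order is not resolved. At the other end, MARS2 and PARS2 had 0 counts in both HA IPs, where 3 counts would be 4.11 and 2.47 CPM.

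Members at 0 counts were all mitochondrial except for VARS and WARS in the second V5 IP. The HA IPs had 3 and 2 such genes, the V5 IPs 8 and 10, the input 4 and HEK293 alone 0. QARS was the lowest cytosolic member per kb in the HA IPs, at 0.757 ± 0.576 CPM per kb (SD, n = 2).

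**Figure D1:**
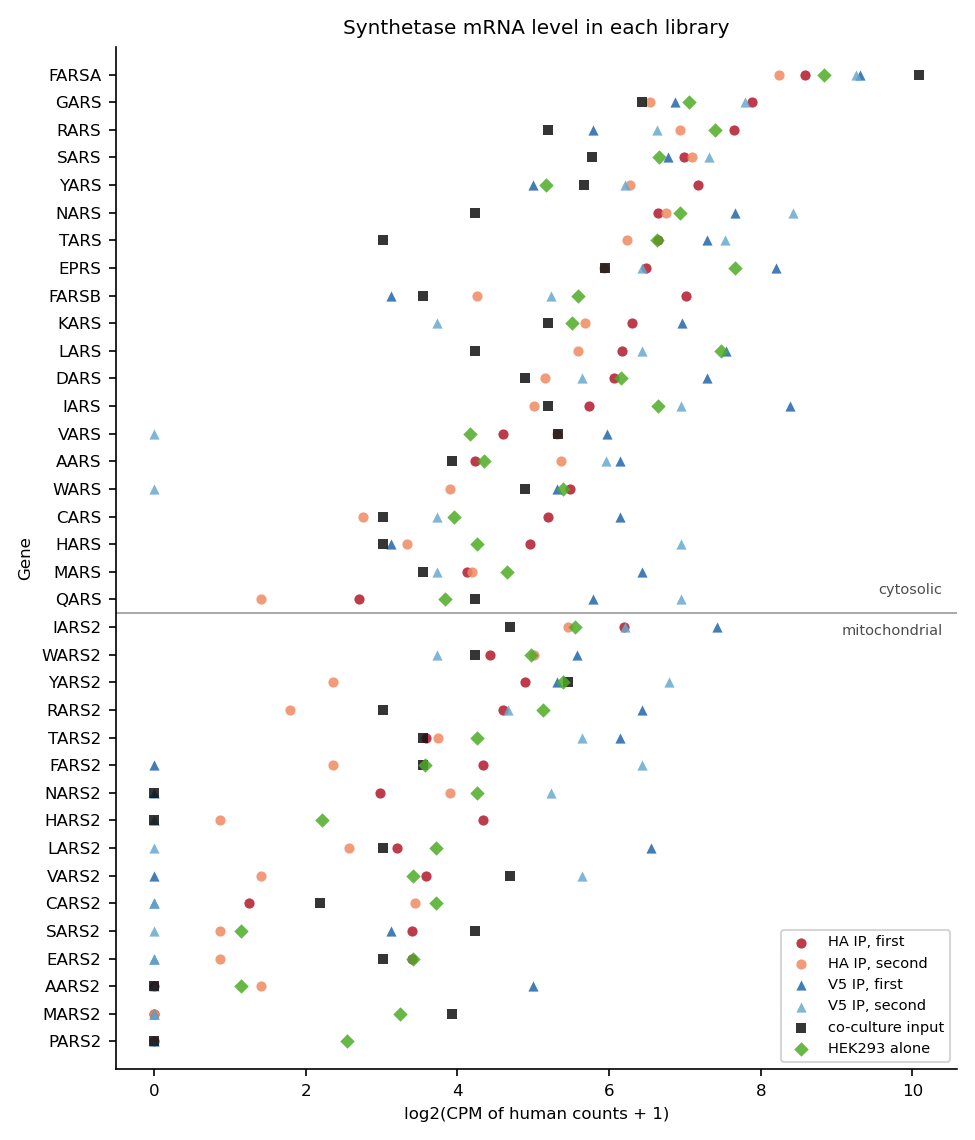
Level of each of the 36 synthetase mRNAs in the 6 libraries with human RNA, as log2(CPM of human counts + 1), with cytosolic genes above the line and mitochondrial genes below it, each ordered by mean level in the HA IPs. FARSA is the highest gene in every library, and its input point lies to the right of its other 5 points, whereas most input points of other cytosolic genes lie to the left.

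A summed level shows how FARSA set the input apart. All 36 genes together made up 2184 and 1409 CPM in the HA IPs, 3336 and 2848 CPM in the V5 IPs, 1838 CPM in the input and 2159 CPM in HEK293 alone. The input was thus inside the range of the HA IPs. FARSA alone accounted for 17.5% (15.7 to 19.5%) and 21.4% (19.5 to 23.4%) of synthetase counts in the HA IPs, 19.1% (15.5 to 23.1%) and 21.5% (16.4 to 27.3%) in the V5 IPs, 59.0% (54.6 to 63.3%) in the input and 21.2% (19.3 to 23.1%) in HEK293 alone, with exact Clopper-Pearson intervals. The input was the one library of the 6 outside the narrow band of the others. Without FARSA, the cytosolic genes summed to 1561 CPM (1472 to 1654) and 976 CPM (921 to 1033) in the HA IPs, 2156 CPM (1910 to 2425) and 1797 CPM (1518 to 2112) in the V5 IPs, 564 CPM (479 to 659) in the input and 1441 CPM (1360 to 1525) in HEK293 alone. The mean of the HA IPs was 0.977 times the input with FARSA and 2.25 times the input without it, a split chosen after the values were seen. The mitochondrial genes summed to 241 and 132 CPM in the HA IPs, 543 and 440 CPM in the V5 IPs, 189 CPM in the input and 261 CPM in HEK293 alone.

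**Figure D2:**
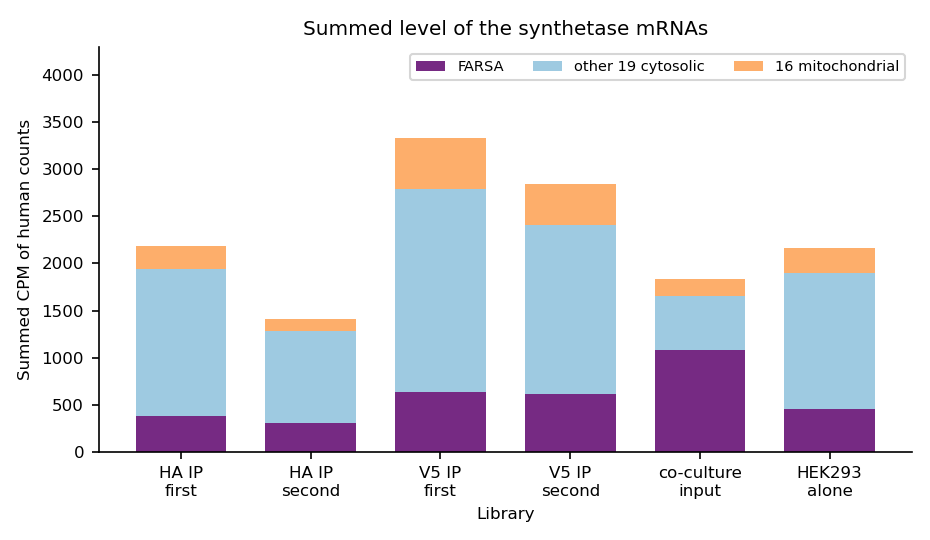
Summed CPM of human counts of the synthetase mRNAs in each library, split into FARSA, the other 19 cytosolic genes and the 16 mitochondrial genes. FARSA fills 59.0% of the input bar and 17.5 to 21.5% of the other bars.

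HA IPs were set against the input to ask which mRNAs were over- or under-represented on tagged human ribosomes relative to total RNA of a co-culture. Of the 36 genes, 29 passed the filter on low counts, all 20 cytosolic and 9 mitochondrial, and were tested. TARS2, LARS2, QARS, FARS2 and NARS2 passed through the V5 IPs alone. No synthetase mRNA passed the edgeR quasi-likelihood test after Benjamini-Hochberg adjustment, against 0.625% of all human genes tested. At an unadjusted p under 0.05, 4 of the 29 passed, TARS, NARS and RARS higher in the HA IPs and FARSA lower, against 8.86% of all genes. DESeq2 gave an adjusted p for 7 of the genes and called 1 of them, FARSA, against 5.85% of all genes with such a p.

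FARSA, the α subunit of the phenylalanyl enzyme, had 382 and 302 CPM in the HA IPs, against 1085 CPM in the input, from 279, 366 and 304 counts. Both HA values lay far below the input, and the counting intervals of 339 to 430 and 272 to 334 CPM in the HA IPs did not reach that of 967 to 1214 CPM in the input. The fitted log2 difference was −1.86 (SE 0.56), with a Benjamini-Hochberg adjusted p of 0.108 in edgeR's quasi-likelihood test. The call changed with the processing. It was made under 6 of the alternatives, with edgeR or DESeq2 adjusted p between 0.00268 and 0.0245. The main fit called 39 of 6244 human genes, and those alternatives called from 47 of 2053 to 260 of 5964. The call was not made with no filter on low counts (edgeR adjusted p = 0.224). Removal of the GC trend gave a log2 difference of −1.37 and an edgeR adjusted p of 0.763. With an IP left out the call was not made either, at log2 differences of −1.92 to −1.84.

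FARSB, the β subunit of the same enzyme, had a difference of the opposite sign. It had 129 and 18.1 CPM in the HA IPs, against 10.7 CPM in the input, where it had 3 counts. Both HA values were above the input, but they differed from each other more than the second did from the input. The fitted log2 difference was 2.43 (SE 1.42; edgeR's quasi-likelihood test, adjusted p = 0.648). The counting interval of the ratio of pooled counts ran from 1.86 to 27.4. Per kilobase, FARSA exceeded FARSB in every library, with 157 and 124 against 38.2 and 5.38 CPM per kb in the HA IPs and 446 against 3.18 CPM per kb in the input.

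TARS, the threonyl enzyme, had 98.7 and 74.2 CPM in the HA IPs, against 7.14 CPM in the input, which is 2 counts. Its 2 HA values lay close together and far above the input. The fitted log2 difference was 3.36 (SE 1.27; edgeR's quasi-likelihood test, adjusted p = 0.307), and the ratio of pooled counts was 11.7, with a counting interval of 3.18 to 97.3. NARS, the asparaginyl enzyme, had 98.7 and 107 CPM in the HA IPs, against 17.8 CPM in the input. Here too the HA IPs agreed closely and did not overlap the input. The fitted log2 difference was 2.35 (SE 1.02; edgeR's quasi-likelihood test, adjusted p = 0.445). RARS had 200 and 121 CPM in the HA IPs, against 35.7 CPM in the input. It was the highest member of the multisynthetase complex in both HA IPs, and its log2 difference was 1.94 (SE 0.96; edgeR's quasi-likelihood test, adjusted p = 0.536).

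QARS, the glutaminyl enzyme of the complex, had 5.48 and 1.65 CPM in the HA IPs, against 17.8 CPM in the input. These are 4, 2 and 5 counts, so the log2 difference of −2.56 (SE 1.56; edgeR's quasi-likelihood test, adjusted p = 0.683) rests on very little RNA. Among mitochondrial genes, VARS2, the valyl enzyme, had 10.96 and 1.65 CPM in the HA IPs, against 24.99 CPM in the input, a log2 difference of −2.29 (SE 1.86). Other genes cover 21.99% of the exonic bases of VARS2, mainly GTF2H4, and counting ignored strand. YARS2 had 28.8 and 4.12 CPM in the HA IPs, against 42.8 CPM in the input, a log2 difference of −1.71 (SE 1.19). Both were below the input in each HA IP, and the adjusted p in edgeR's quasi-likelihood test was 0.806 for VARS2 and 0.758 for YARS2. NARS2, the mitochondrial asparaginyl enzyme, had 6.85 and 14.0 CPM in the HA IPs, against 0 counts in the input. With 3 counts of that library in place of the 0, NARS2 in the HA IPs together was at least 1.06-fold higher, a value that leaves out counting error.

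As a group, 20 of the 29 genes had a fitted difference above 0, against 61.4% of all human genes tested, and their median log2 difference was 0.57, against 0.38 for all genes. With NARS2 at its bound the median was 0.48. Cytosolic genes had 16 of 20 above 0 and a median of 0.79. Mitochondrial genes had 4 of 9 above 0 and a median of −0.03. Within the multisynthetase complex 7 of 8 were above 0 with a median of 0.53, and of the 12 cytosolic genes outside it 9 were above 0 with a median of 1.02. Scaling by DESeq2 size factors left 18 of the 29 genes, 14 of the 20 cytosolic genes and 5 of the 8 complex members above 0, and scaling by total counts 23 of the 29. The mitochondrial median was then −0.26 and 0.12. The complex had 4 of 8 above 0 and a median of −0.15 once the GC trend was removed.

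The difference between HA IPs and input went with base composition among the synthetases and among all genes. Across the 29 genes, which are not independent replicates and share the same 3 libraries, the Spearman rank correlation between transcript GC content and the log2 difference was −0.55. Across all 6244 human genes tested it was −0.51. FARSA, at 60.3% GC, and VARS2, at 60.2%, were on the low side. FARSB at 41.6%, TARS at 43.6% and NARS at 44.3% were on the high side. VARS, the valyl enzyme of the cytosol and the member with the highest GC content among those tested at 62.6%, was lower in the HA IPs by less, with a log2 difference of −0.46. With the GC trend of each library removed, the median of the synthetases was 0.19 and that of all genes 0.14. The log2 difference was then 1.40 in place of 2.43 for FARSB, 1.64 in place of 2.35 for NARS and 2.58 in place of 3.36 for TARS. On the low side it was −1.37 in place of −1.86 for FARSA, −1.73 in place of −2.29 for VARS2 and −2.26 in place of −2.56 for QARS. YARS2 went the other way, with −1.87 in place of −1.71. The part of base composition in single differences was not tested beyond that.

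**Figure D3:**
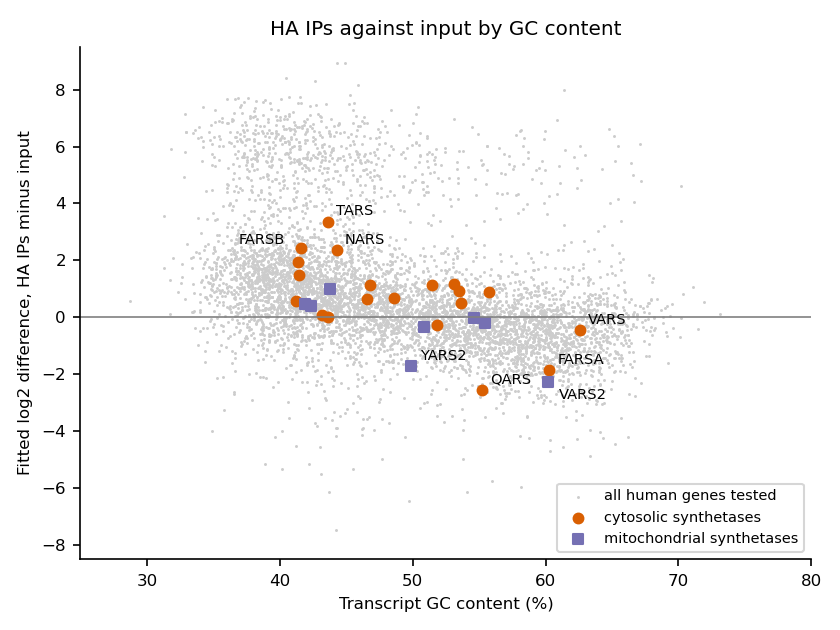
Fitted log2 difference between HA IPs and input against transcript GC content, for all human genes tested (grey) and the synthetases tested, cytosolic as circles and mitochondrial as squares. Among the synthetases and among all genes the difference tends to be lower at higher GC content (rank correlations of −0.55 and −0.51). NARS2 is left out because it had 0 counts in the input.

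HA IPs were also set against total RNA of HEK293 cells grown alone. No synthetase passed the edgeR quasi-likelihood test after Benjamini-Hochberg adjustment, against 0.368% of all genes, and none had an unadjusted p under 0.05, against 3.83% of all genes. DESeq2 gave an adjusted p for 1 of the genes and called 0, against 8.06% of all genes with one. Every adjusted p of a synthetase was 1.00 when rounded. Of the 29 genes, 10 had a difference above 0, against 50.6% of all genes, and the median was −0.21, against 0.01 for all genes. TARS, NARS and FARSA, which lay far from the input, lay closer to HEK293 alone, whereas QARS and YARS2 had log2 differences of −1.96 and −1.47 here. TARS had 98.7 and 74.2 CPM in the HA IPs, against 98.0 CPM in HEK293 alone, and NARS 98.7 and 107 CPM, against 121 CPM. FARSA had 382 and 302 CPM in the HA IPs, against 457 CPM in HEK293 alone, a log2 difference of −0.43 (SE 0.57).

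Of the 8 members of the multisynthetase complex, KARS was above 0 and the other 7 were below, with a median of −0.91, and 7 of 8 were also below 0 under both other scalings and 6 of 8 with the GC trend removed. Of the 12 cytosolic genes outside the complex 8 were above 0, with a median of 0.30. The difference between those medians was not tested, and the complex members counted 7 of 8 above 0 against the input. Between transcript length and the log2 difference the Spearman rank correlation was −0.24 over all human genes tested. It was −0.60 over the 8 complex members and 0.27 over the 12 genes outside the complex, which are not independent replicates. The part of transcript length was not tested. LARS, the leucyl enzyme, had 71.3 and 47.0 CPM in the HA IPs, against 177 CPM in HEK293 alone, a log2 difference of −1.61 (SE 0.82). Both HA values lay below HEK293, and the ratio of pooled counts was 0.318 (counting interval 0.246 to 0.410). EPRS, the enzyme that charges both glutamate and proline, had 89.1 and 60.2 CPM in the HA IPs, against 202 CPM in HEK293 alone. IARS had 52.1 and 31.3 CPM in the HA IPs, against 99.2 CPM in HEK293 alone. QARS had 5.48 and 1.65 CPM in the HA IPs, against 13.3 CPM in HEK293 alone, a log2 difference of −1.96 (SE 1.42). These 4 genes had the lowest fitted differences of the complex, and in each both HA values were below the HEK293 value. KARS had both above it, with 78.1 and 50.3 CPM, against 44.8 CPM. How often both HA values fall on the same side of the single HEK293 library over all genes was not counted, so this supports nothing on its own.

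The largest difference upward was that of YARS, the tyrosyl enzyme of the cytosol. It had 144 and 76.7 CPM in the HA IPs, against 35.1 CPM in HEK293 alone, a log2 difference of 1.59 (SE 1.01). Both HA values were above HEK293, and the ratio of pooled counts was 2.91 (counting interval 1.96 to 4.45). VARS had 23.3 and 38.7 CPM in the HA IPs, against 16.9 CPM in HEK293 alone, a log2 difference of 0.93 (SE 1.26). AARS, the alanyl enzyme, had 17.8 and 40.4 CPM in the HA IPs, on both sides of its 19.4 CPM in HEK293 alone. Its log2 difference of 0.67 (SE 1.23) rested on the second HA IP and was −0.31 without it. Of the 9 mitochondrial genes, IARS2 was above 0 and 8 were below, with a median of −0.70. RARS2, the mitochondrial arginyl enzyme, had 23.3 and 2.47 CPM in the HA IPs, against 33.9 CPM in HEK293 alone, a log2 difference of −1.56 (SE 1.25).

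**Figure D4:**
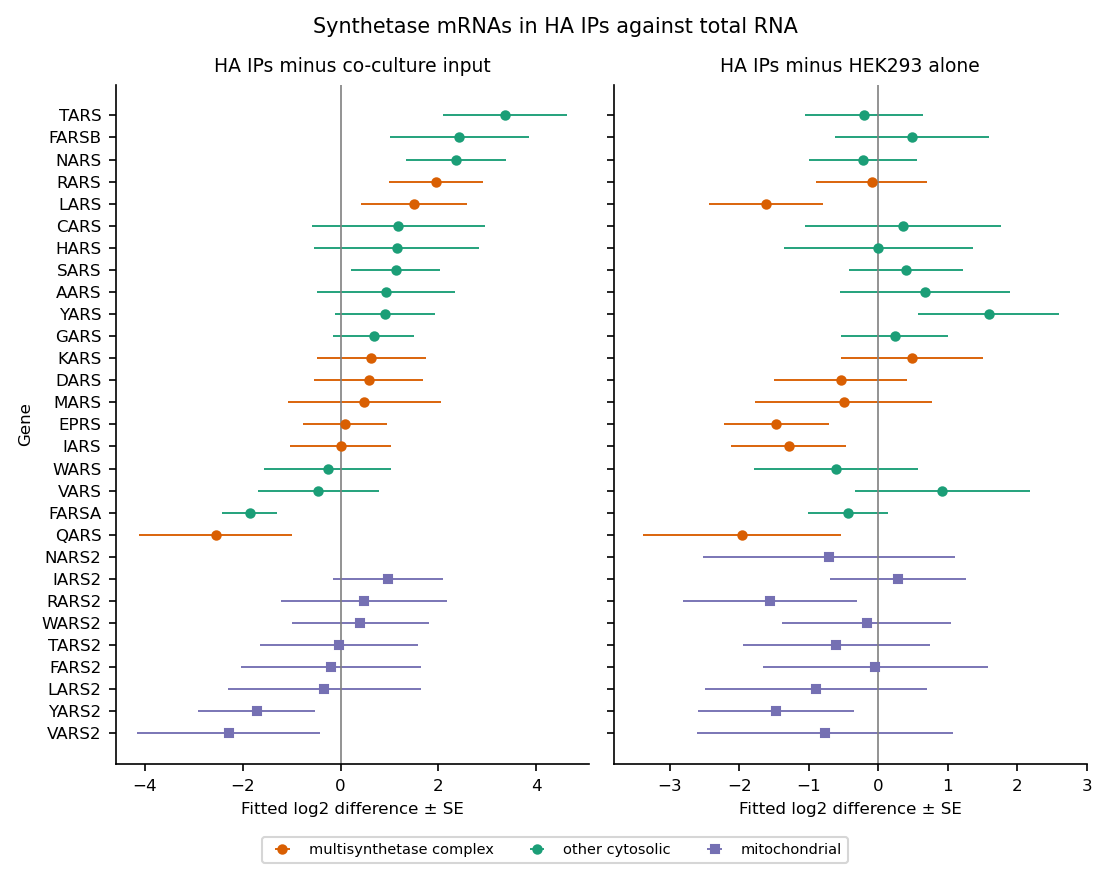
Fitted log2 difference ± SE of each tested synthetase in the HA IPs against the input (left) and against HEK293 alone (right), from one fit over 6 libraries. TARS, FARSB and NARS lie far to the right of 0 on the left and near 0 on the right, and 7 of 8 members of the multisynthetase complex lie below 0 on the right. NARS2 has no point on the left because it had 0 counts in the input.

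HA IPs were set against V5 IPs to compare human RNA in the IP aimed at human ribosomes with human RNA in the IP aimed at mouse ribosomes. The V5 IPs held few human counts, 430 and 233 on the 36 genes. No synthetase passed the edgeR quasi-likelihood test after Benjamini-Hochberg adjustment, against 0.368% of all genes. At an unadjusted p under 0.05, QARS and IARS passed, both lower in the HA IPs, against 11.2% of all genes. DESeq2 gave an adjusted p for 27 of the genes and called 0, against 0.673% of all genes with one. Of the 29 genes, 9 had a difference above 0, against 60.7% of all genes, and the median was −0.78, against 0.37 for all genes. Since 5 of the 29 genes entered the test through their V5 level alone and so had to be high there, this count and median support nothing on their own.

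QARS had 5.48 and 1.65 CPM in the HA IPs, against 54.3 and 122 CPM in the V5 IPs. The groups did not overlap, from 4 and 2 counts in the HA pair and 7 and 10 in the V5 pair. The log2 difference was −4.25 (SE 1.31; edgeR's quasi-likelihood test, adjusted p = 0.141), and it passed under 2 alternatives, with the GC trend removed (edgeR adjusted p = 0.0367) and when the first V5 IP was left out (edgeR adjusted p = 0.00943). QARS entered the test through its V5 level alone, so it had to be high in the V5 IPs, and neither its difference nor these calls are evidence of one. IARS had 52.1 and 31.3 CPM in the HA IPs, against 334 and 122 CPM in the V5 IPs. Again no HA value reached a V5 value, and the log2 difference was −2.15 (SE 0.74; edgeR's quasi-likelihood test, adjusted p = 0.226). IARS passed without the second V5 IP (log2 difference −2.67, edgeR adjusted p = 0.00967) and did not pass without the first (log2 difference −1.20, edgeR adjusted p = 0.46). LARS2, the mitochondrial leucyl enzyme, had 8.22 and 4.95 CPM in the HA IPs, against 93.1 and 0 CPM in the V5 IPs. Its V5 level came from the first V5 IP alone, and its log2 difference of −2.56 had an SE of 1.43. LARS2 too was tested through its V5 level alone, which selects it for being high there.

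On the other side were FARSB, YARS and RARS. FARSB had 129 and 18.1 CPM in the HA IPs, against 7.76 and 36.7 CPM in the V5 IPs, and the groups overlapped at a log2 difference of 2.08 (SE 1.15). YARS had 144 and 76.7 CPM in the HA IPs, against 31.0 and 73.4 CPM in the V5 IPs, a log2 difference of 1.47 (SE 0.89). RARS had 200 and 121 CPM in the HA IPs, against 54.3 and 97.8 CPM in the V5 IPs, a log2 difference of 1.46 (SE 0.75). YARS and RARS did not overlap between the groups, though the second V5 IP came close in YARS. The V5 values of these genes rest on 1 to 8 counts per V5 IP.

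V5 IPs were set against the input, which asks how human RNA in the mouse-directed IP compares with total RNA. No synthetase passed the edgeR quasi-likelihood test after Benjamini-Hochberg adjustment, against 0.753% of all genes. At an unadjusted p under 0.05, 5 of the 29 passed, NARS, TARS, LARS and IARS higher and FARSA lower in the V5 IPs, against 12.9% of all genes. DESeq2 gave an adjusted p for 7 of the genes and called 1, NARS (adjusted p = 0.0283), against 4.35% of all genes with one. Of the 29 genes, 24 were above 0, against 49.6% of all genes. The median was 1.33, against 0.00 for all genes, and 1.28 with NARS2 at its bound. The same 5 genes enter here through their V5 level alone and so had to be high there. For that reason the count above 0 and the median support nothing on their own. This comparison and that of HA IPs with the input share the single input library, so they are given side by side. FARSA had a log2 difference of −1.86 for the HA pair and −1.36 for the V5 pair, TARS one of 3.36 and 3.96, and NARS one of 2.35 and 3.34. NARS itself had 202 and 342 CPM and TARS 155 and 183 CPM in the V5 IPs, against 17.8 and 7.14 CPM in the input.

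The input and HEK293 alone, 1 library each, were compared without a test. FARSA had 1085 CPM in the input, against 457 CPM in HEK293 alone, a ratio of 2.37 (counting interval 2.03 to 2.77). Of the 29 genes, 3 were past 2-fold higher in the input, FARSA, VARS and VARS2, against 19.3% of all genes, and 10 were past 2-fold lower, against 25.6%. VARS had 11 counts in the input and 14 in HEK293 alone (counting interval 0.952 to 5.50). VARS2 had 7 and 8 counts (0.797 to 8.15), so the intervals of VARS and VARS2 held 1. Over all genes 44.9% were past 2-fold in either direction. The counting interval of the ratio left out 1 for 12 of the 29 genes, against 43.5% of all genes. TARS had 7.14 CPM in the input, against 98.0 CPM in HEK293 alone, a ratio of 0.0729 (0.00868 to 0.272). LARS had 17.8 CPM in the input, against 177 CPM, a ratio of 0.101 (0.0323 to 0.241). NARS had 17.8 CPM in the input, against 121 CPM, a ratio of 0.148 (0.0469 to 0.356). The input thus stood apart in FARSA, TARS and NARS from HEK293 alone as it did from the HA IPs, and with 1 library each a difference between the cultures and one between the libraries cannot be told apart.

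The second HA IP was read against the first as 1 library against 1. The levels of the 36 genes ran in much the same order in both, with a Spearman rank correlation of 0.84 across genes of the same 2 libraries. Across all 6244 human genes tested it was 0.84 too. Between the HA IPs and HEK293 alone the 36 genes had correlations of 0.869 for the first and 0.877 for the second. Of the 29 genes, AARS was past 2-fold higher in the second HA IP, against 5.22% of all genes, and 10 were past 2-fold lower, against 26.2%, while 31.4% of all genes were past it in either direction. The counting interval of the ratio left out 1 for 19 of the 29, against 45.2% of all genes. FARSB was the most unequal of the better counted genes, with 18.1 CPM in the second HA IP, against 129 CPM in the first, a ratio of 0.141 (0.0842 to 0.226). GARS had 92.3 CPM in the second HA IP, against 236 CPM in the first, a ratio of 0.392 whose counting interval left out 1. SARS with 136 against 126 CPM and NARS with 107 against 98.7 CPM had intervals that held 1. With a prior count of 2, the log2 ratio was below 0 for 22 of the 29 synthetases and for 4083 of the 6244 human genes tested. The 8 complex members were among the 22. For MARS that ratio was −0.02 and came from the prior count, since its CPM was 17.3 in the second HA IP, against 16.4 in the first. Between the V5 IPs, 8 of the 29 were past 2-fold higher in the second, against 24% of all genes, 10 were past 2-fold lower, against 15.6%, and 39.6% of all genes were past it in either direction. The counting interval of that ratio left out 1 for 10 of the 29, against 22.3% of all genes.

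**Figure D5:**
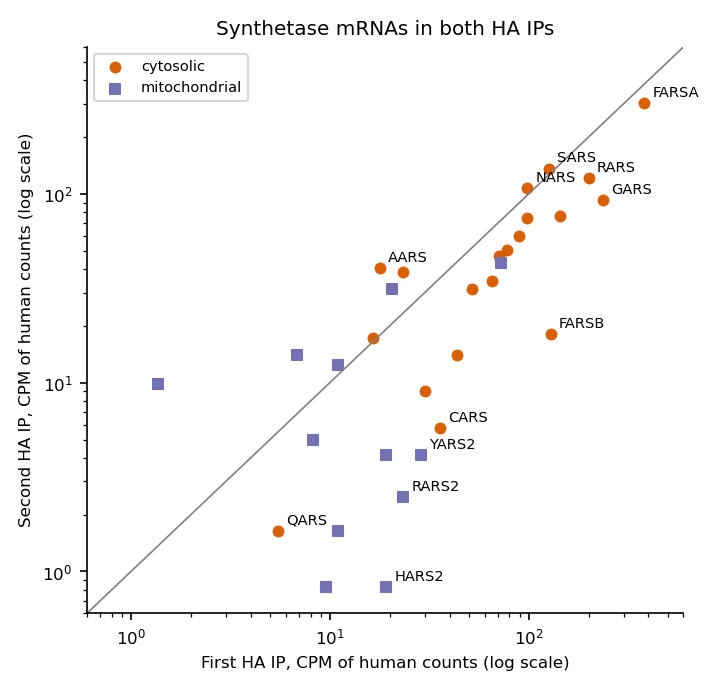
CPM of the synthetase mRNAs in the second HA IP against the first, on log scales, with the line of equal levels. SARS and NARS lie close to the line, FARSB, CARS, YARS2 and RARS2 lie far below it and AARS above it. The 3 genes with 0 counts in a HA IP (AARS2, MARS2 and PARS2) cannot be drawn.

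Genes that work with the synthetases were read from 3 lists. None of them had a called member in the HA IPs against the input, against HEK293 alone or against the V5 IPs. Of all human genes tested, 0.625, 0.368 and 0.368% were called in those comparisons, so so few list genes would seldom include one. AIMP1, a scaffold protein of the complex, had 91.8 and 72.5 CPM in the HA IPs, 248 and 232 CPM in the V5 IPs, 10.7 CPM in the input and 129 CPM in HEK293 alone. Like TARS and NARS it was lowest in the input, and its log2 difference between HA IPs and input was 2.72 (SE 1.14; edgeR's quasi-likelihood test, adjusted p = 0.403). The scaffold proteins AIMP2 and EEF1E1 had log2 differences of −0.69 and 0.34 between HA IPs and input. Other genes cover 28.9% of the exonic bases of AIMP2 and 18.7% of those of EEF1E1. Of 13 other genes of tRNA charging, editing and handling, 7 were tested. Between HA IPs and input 6 of the 7 were above 0, against 61.4% of all human genes tested. SSB, the La protein that binds the ends of new tRNA precursors, had 496 and 299 CPM in the HA IPs, against 64.2 CPM in the input (log2 difference 2.40, SE 0.75; edgeR's quasi-likelihood test, adjusted p = 0.128). PTRH2, a peptidyl-tRNA hydrolase, had 72.6 and 66.8 CPM in the HA IPs, against 28.6 CPM in the input.

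Of 20 ATF4 program genes outside the synthetases, 17 were tested. Between HA IPs and input 7 were above 0 and 10 below, with a median of −0.41. Of all human genes tested, 61.4% were above 0 there, with a median of 0.38. Between HA IPs and HEK293 alone 7 were above and 10 below, with a median of −0.18. There 50.6% of all genes were above 0, with a median of 0.01. PHGDH, the first enzyme of serine synthesis, had 503 and 440 CPM in the HA IPs, against 1453 CPM in the input, and 917 CPM in HEK293 alone (HA IPs against input, log2 difference −1.81, SE 0.53; edgeR's quasi-likelihood test, adjusted p = 0.0926). ATF4 itself had 334 and 358 CPM in the HA IPs, 566 and 929 CPM in the V5 IPs, 575 CPM in the input and 238 CPM in HEK293 alone. PYCR1, an enzyme of proline synthesis, fell in the V5 IPs, with 403 and 183 CPM, against 1064 CPM in the input (log2 difference −2.38, SE 0.60; edgeR's quasi-likelihood test, adjusted p = 0.0219). Other genes cover 29.7% of its exonic bases. It was the one member of the 3 lists called in the V5 IPs against the input, where 0.753% of all human genes tested were called.

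Annotated overlap and pseudogenes were looked up for every member. The 14 human pseudogenes named after a member had 0 counts in every library, which does not show where reads shared with a pseudogene were placed. Other genes cover over 10% of the exonic bases of SARS2 (57.0%), VARS2 (21.99%), HARS2 (15.8%), MARS (13.3%) and WARS (10.6%). SARS2 and HARS2 were not tested, nor were AARS2, CARS2, EARS2, MARS2 and PARS2. These 7 mitochondrial genes had at most 19.2 CPM in any HA IP, 31.0 CPM in any V5 IP, 17.8 CPM in the input and 12.1 CPM in HEK293 alone. HARS2, the mitochondrial histidyl enzyme, had 19.2 and 0.824 CPM in the HA IPs, which is 14 counts and 1 count, against 0 counts in the input and 3.63 CPM in HEK293 alone. CARS2, the mitochondrial cysteinyl enzyme, had 1.37 and 9.89 CPM in the HA IPs, against 3.57 CPM in the input and 12.1 CPM in HEK293 alone.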

How the data were processed

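The authors deposited whole-number counts of reads per gene for 7 libraries. Per the labels' protocols, SMART-seq cDNA went into Nextera DNA Flex libraries. Per the file headers, counting used featureCounts 1.5.2 over exons by gene, in paired mode without strand (option 0), on a joint human and mouse annotation. The submitters' processing notes name Trim Galore, STAR 2.5.2, SAMtools and hg38. The sources used here give no mouse build. All 58721 human identifiers matched GENCODE 29.

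Human counts of 6 libraries were fitted together with edgeR 4.0.16 in R 4.3.3 (quasi-likelihood test, two-sided, TMM scaling, filterByExpr at 10 counts and a total of 15, Benjamini-Hochberg adjustment over 6244 genes, threshold 0.05). The fit had 2 residual degrees of freedom and a biological coefficient of variation of 51.2%. Single libraries were assumed to vary like the IPs. Each SE of a fitted log2 difference was worked back from that test, as the size of the difference over the square root of the F statistic. Single-library differences used a prior count of 2 and a 2-fold limit, and ratios exact intervals. DESeq2 1.42.0 was an alternative. The procedure was also run on simulated data with changes placed in the HA IPs alone. Those data had no GC trend and no bias of single libraries, so that run cannot speak to either. GC content and sequences came from GENCODE 29 transcripts. Full values went to members called, the 4 highest and 4 lowest in HA IPs against input, the 3 highest and 3 lowest in HA IPs against HEK293 and against V5 IPs, and the highest per kilobase. Other members were added by group or after their values were seen. Members and gene lists were chosen with earlier results of these data known. Figures used matplotlib 3.10.9.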

Additional observations from a re-analysis of the deposited data

How the results depend on the processing

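The alternatives were other scalings (DESeq2 size factors, total human counts), other filters (none, or 50 counts in 2 libraries), the Wald test of DESeq2, the order of IPs as a replicate block, a fit of only the groups compared, removal of the GC trend, leaving out each IP and, added after seeing the data, leaving out the co-culture input or FARSA. The values computed for whole comparisons under them shifted by unequal amounts. In HA IPs against V5 IPs the median of −0.78 was −1.11 under DESeq2 size factors and under total counts. In HA IPs against HEK293 alone the median of −0.21 was −0.44 with no filter and −0.45 without the first HA IP. In HA IPs against input, 1 synthetase, FARSA, was called under DESeq2 size factors, total counts, the filter of 50 counts, DESeq2 and the replicate block. Over all human genes the calls there were, in that order, 68 of 6244, 104 of 6244, 47 of 2053, 82 of the 1402 given an adjusted p, and 51 of 6244. With only the groups compared, FARSA and TARS (edgeR adjusted p = 0.0398) were called, among 260 of 5964 human genes. No member was called with any IP left out. The median of 0.57 was 0.19 with the GC trend removed and 0.23 to 0.71 with an IP left out, lowest without the first HA IP, where it was below the median of all genes (0.31) rather than above it. In HA IPs against V5 IPs, 1 was called with the GC trend removed, where 40 of 6244 human genes were called. The median was −1.30 with the GC trend removed and −1.03 to −0.12 with an IP left out, nearest 0 without the first V5 IP. In V5 IPs against input, 2 were called under total counts (NARS and TARS), where 105 of 6244 human genes were called. DESeq2 called 1 there, and 61 of the 1402 human genes given an adjusted p. There the median was 1.45 under DESeq2 size factors, 1.87 under total counts, 0.91 with no filter, 1.12 under the filter of 50 counts, 1.48 under DESeq2, 1.14 with the replicate block, 1.49 with the GC trend removed, 1.70 with only the groups compared and 0.85 to 1.35 with an IP left out. No member was called in HA IPs against HEK293 alone under any alternative, and the sign of a named difference turned once, for AARS there (−0.31 without the second HA IP, up to 1.20 without the first). In each comparison the median kept its sign under every alternative. The cause of these shifts was not tested. The first IPs share a lysate number and the second IPs do not, and the deviations of HA and V5 IPs of the same order correlated with r = 0.066 over 6244 genes. Scaling moved the median of all genes in HA IPs against input between 0.17 and 0.57. Depth limits the mitochondrial genes most, with 36 to 216 counts in all per library on the 16 of them.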
